A study of Mus musculus with 12 samples.

Results

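The genes described here are 9 regulators of apoptosis: Bcl2, Bcl2l1, Mcl1, Bcl2l11, Bmf, Bid, Bad, Bak1 and Casp8. They were found by their symbols in the expression tables, and the rows of a symbol were summed in each library. All 9 were present, of 14082 gene symbols that could be used. RNA was sequenced from Lgr5-GFP+ cells, sorted by flow cytometry from the intestinal epithelium of C57BL/6 mice. Every mouse, controls included, carried Lgr5-CreERT2-ires-eGFP, received tamoxifen in 1 injection and then in the diet for 5 days, and was sampled on day 15. The groups, of 4 libraries each, were Apc_WT with the genotype Apc+/+, Apc_HET with ApcFlox/+ and Apc_KO with ApcFlox/Flox. Apc is a scaffold of the complex that sends beta-catenin to destruction in the Wnt pathway. The Cre recombinase was driven from the Lgr5 locus, so recombination was directed to Lgr5+ cells. The labels name 4 mice per genotype but do not tie a library to an animal, and they give no age, sex or batch, so the p-values measure the spread between these libraries.

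Proteins of the BCL2 family decide whether the outer mitochondrial membrane of a stressed cell is breached. Anti-apoptotic members (BCL2, BCL-XL, MCL1) hold back the pore formers BAK and BAX, and BH3-only proteins (BIM, BMF, BID, BAD) relieve that restraint or activate the pore formers directly. Once the membrane is open, cytochrome c is released and the apoptosome activates caspases. Caspase-8 starts a separate route from death receptors at the cell surface and can join the mitochondrial route by cleaving BID. In the intestinal crypt, apoptosis is known for removing damaged cells from the stem cell zone. RNA levels do not report the activity of these proteins, several of which are controlled by phosphorylation, cleavage or turnover.

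Levels are given in FPKM, fragments scaled to transcript length and to the library's mapped fragments, so they can be compared between genes. The lowest and highest library totals, 391710 and 518428 FPKM, belonged to replicates 1 and 4 of Apc_KO. The number of fragments behind these values is unknown. Pairs of libraries of the same genotype correlated across genes at 0.963 to 0.977 for Apc_WT, 0.941 to 0.981 for Apc_HET and 0.913 to 0.961 for Apc_KO. Lgr5, the gene that defines the sort, ran from 20.2 to 30 FPKM for Apc_WT, 21.3 to 31.6 for Apc_HET and 27 to 65.4 for Apc_KO, so it was present in every library. A limma fit called Lgr5 higher in Apc_KO than in Apc_WT (log2 difference 0.70, adjusted p = 0.0272), with overlapping libraries. That call was lost without Apc_WT replicate 2, 3 or 4 or Apc_KO replicate 1. It was also lost with either normalization described below. The part of this difference in the levels of the 9 genes was not tested. Apc had 13.8 ± 3.18 FPKM in Apc_KO, 11 ± 1.11 in Apc_HET and 8.89 ± 1.64 in Apc_WT (SD, n = 4 each; Apc_KO against Apc_WT, log2 difference 0.58, exact two-sided permutation p = 0.0857, smallest possible 0.0286). The limma fit used for the other genes called Apc higher in Apc_KO (adjusted p = 0.0142). No value is given per exon, so the deletion itself could not be read from these levels.

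The first question is how loss of both Apc copies changed these regulators. Relative to Apc_WT, 5 of the 9 genes rose in Apc_KO: the anti-apoptotic Bcl2l1 and Bcl2 and the BH3-only genes Bcl2l11, Bmf and Bid. The pore former Bak1 fell. Mcl1, Bad and Casp8 did not pass the test. Calls were made where the adjusted p was under 0.05 in a limma fit of log2(FPKM + 1), with Benjamini-Hochberg adjustment over all 12962 genes that reached 1 FPKM in at least 4 libraries, a filter that all 9 genes passed. In this comparison 45.5% of all genes tested were called, 27.9% higher and 17.7% lower, so 6 calls among 9 genes stand beside a high background. The median log2 fold change was 0.56 over the 9 genes and 0.12 over all genes. The libraries of Apc_KO and Apc_WT did not overlap for the 6 genes called, against 40.4% of all genes tested, 24.3% with Apc_KO higher and 16% with Apc_KO lower. Rises of at least 2-fold were called for 3 of the 9, Bcl2l1, Bcl2l11 and Bmf, against 11.8% of all genes.

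The scale of the libraries bears on these sizes. Median-of-ratios size factors moved the median of all genes from 0.12 to 0.01 and the calls from 3613 higher and 2291 lower to 2851 higher and 2830 lower. Relative to that shifted median the 6 calls among the 9 genes stood, with Bcl2 at 0.46, Bcl2l1 at 0.92, Bcl2l11 at 1.38, Bmf at 1.60, Bid at 0.48 and Bak1 at -0.81. Quantile normalization moved the median to -0.02 with 2764 genes higher and 3043 lower, and Bcl2 alone of the 6 was not called there (0.37, limma adjusted p = 0.0595).

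**Figure D1:**
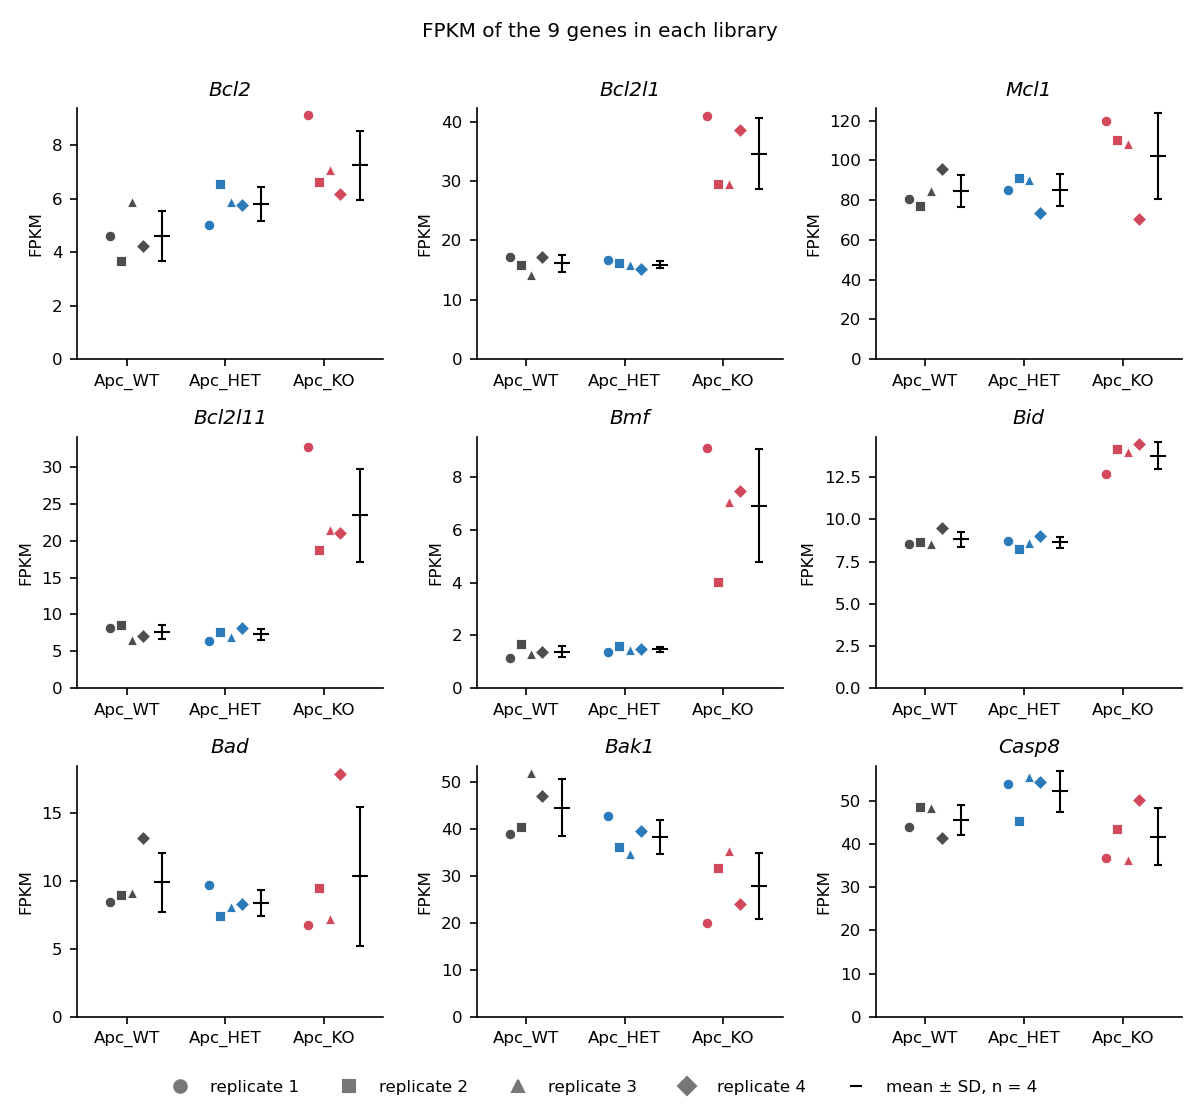
FPKM (vertical axes, each from 0) of the 9 genes in the 12 libraries, grouped by genotype. Marker shapes give the replicate number, and the cross and bar beside each group give the mean and SD of 4 libraries. The Apc_KO libraries of Bcl2l1, Bcl2l11, Bmf and Bid lie above all 8 others, and those of Bak1 below all 4 of Apc_WT.

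Among the anti-apoptotic genes, Bcl2l1 changed most. It encodes BCL-XL and lies on the minus strand at chr2:152780668-152831728 (GRCm38, GENCODE M21). Its 4 libraries held 17.2, 15.9, 14.1 and 17.2 FPKM in Apc_WT, 16.6, 16.2, 15.8 and 15.1 in Apc_HET, and 40.9, 29.5, 29.5 and 38.5 in Apc_KO. Every Apc_KO library lay above every other library, replicates 1 and 4 furthest, while Apc_WT and Apc_HET overlapped. The mean rose from 16.1 ± 1.46 to 34.6 ± 5.95 FPKM (SD, n = 4), a ratio of 2.15. On the log2(FPKM + 1) scale the rise was 1.04 (SE 0.12, 95% interval 0.78 to 1.31, limma adjusted p = 1.96e-05). The gene's splice forms, BCL-XL and the shorter BCL-XS of opposite effect, are not separated in these values.

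Bcl2, the founding member of the family, is on the minus strand at chr1:106538178-106714274. Its libraries held 4.61, 3.69, 5.88 and 4.22 FPKM in Apc_WT, 5.01, 6.55, 5.87 and 5.77 in Apc_HET, and 9.12, 6.64, 7.09 and 6.17 in Apc_KO. The Apc_KO libraries were all above those of Apc_WT, though Apc_KO replicate 4 and Apc_WT replicate 3 lay close together, and the Apc_HET libraries overlapped both other groups. The rise from Apc_WT to Apc_KO was 0.56 (SE 0.15, 95% interval 0.24 to 0.88, limma adjusted p = 0.00787), from 4.6 ± 0.933 to 7.25 ± 1.3 FPKM.

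Mcl1, at chr3:95658788-95663176 on the plus strand, encodes a short-lived anti-apoptotic protein on which the intestinal epithelium is known to depend. Its libraries held 80.5, 76.9, 84.8 and 95.5 FPKM in Apc_WT, 85.2, 91.2, 89.9 and 73.7 in Apc_HET, and 120, 110, 108 and 70.7 in Apc_KO. Apc_KO replicates 1 to 3 were above all 8 libraries of the other genotypes, whereas Apc_KO replicate 4 was the lowest of all 12. The difference between Apc_KO and Apc_WT was 0.25 (SE 0.16, 95% interval -0.09 to 0.59, limma adjusted p = 0.221). Without Apc_KO replicate 4 it was 0.41 and was called (limma adjusted p = 0.00767), so the call on Mcl1 turned on that library.

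Among the BH3-only genes, Bcl2l11 and Bmf had the largest fold changes of the 9. Bcl2l11 encodes BIM, which binds all the anti-apoptotic members and can activate BAX and BAK, and lies on the plus strand at chr2:128126038-128162547. Its libraries held 8.13, 8.6, 6.52 and 7.01 FPKM in Apc_WT, 6.34, 7.59, 6.94 and 8.17 in Apc_HET, and 32.8, 18.7, 21.5 and 21.1 in Apc_KO. No Apc_KO library came near the others, and replicate 1 stood above the remaining 3. The rise was from 7.57 ± 0.963 to 23.5 ± 6.32 FPKM, a ratio of 3.11, and 1.49 on the log2(FPKM + 1) scale (SE 0.16, 95% interval 1.14 to 1.84, limma adjusted p = 1.19e-05).

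Bmf encodes a BH3-only protein that is otherwise held at the cytoskeleton, and lies on the minus strand at chr2:118528757-118549687. It had the lowest mean of the 9 in every genotype, with 1.15, 1.68, 1.3 and 1.38 FPKM in Apc_WT and 1.38, 1.6, 1.42 and 1.47 in Apc_HET. The Apc_KO libraries held 9.13, 4.01, 7.07 and 7.49 FPKM. All 4 were above every other library, with replicate 2 the lowest of them. The mean rose from 1.38 ± 0.221 to 6.92 ± 2.14 FPKM, a ratio of 5.02. The log2(FPKM + 1) scale gives less for so low a gene, 1.70 (SE 0.19, 95% interval 1.29 to 2.10, limma adjusted p = 1.42e-05).

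Bcl2l11, Bmf and Bcl2l1, the genes with a called rise of at least 2-fold, are all on chromosome 2. Their shared chromosome was not set against that of other genes. The 3 were picked by their rise, so that their levels moved together follows from the choice. The 250 bases before 1 RefSeq start site of each are shown. The windows are chr2:128125788-128126037 (plus strand), chr2:118549687-118549936 (minus strand) and chr2:152831729-152831978 (minus strand) of GRCm38.p6, written 5′ to 3′ on the gene's strand. Capitals mark GTAAACA, which is the core of the sites that FOXO factors bind.
Bcl2l11: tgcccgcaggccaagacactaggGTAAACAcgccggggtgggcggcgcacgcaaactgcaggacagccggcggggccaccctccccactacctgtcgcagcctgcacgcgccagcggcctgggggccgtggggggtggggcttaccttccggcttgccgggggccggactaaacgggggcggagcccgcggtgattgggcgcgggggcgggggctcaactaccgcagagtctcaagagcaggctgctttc
Bmf: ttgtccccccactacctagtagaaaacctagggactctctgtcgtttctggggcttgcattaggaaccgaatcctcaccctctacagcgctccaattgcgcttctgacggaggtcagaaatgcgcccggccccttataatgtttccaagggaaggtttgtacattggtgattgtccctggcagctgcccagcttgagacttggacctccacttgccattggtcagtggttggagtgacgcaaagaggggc
Bcl2l1: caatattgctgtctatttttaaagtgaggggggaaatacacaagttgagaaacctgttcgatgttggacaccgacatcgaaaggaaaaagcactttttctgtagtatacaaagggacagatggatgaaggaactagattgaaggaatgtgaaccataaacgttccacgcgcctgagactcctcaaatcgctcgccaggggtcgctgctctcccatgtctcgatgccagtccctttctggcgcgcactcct
The windows of all 9 genes were searched on both strands for 3 motifs, none of which contains another. Each gene had 1 window, at the RefSeq start nearest the 5′ end of its locus. RefSeq lists 3 starts for Bcl2l1, 3 for Bmf, 2 for Bcl2l11 and 2 for Bad, and their other starts were not searched. They were the FOXO core GTAAACA, the core of sites bound by TCF and LEF factors, spelled CTTTGA, and the E-box of MYC, spelled CACGTG. The search found 1 match, the GTAAACA of Bcl2l11, 227 bases before the start and on the gene's own strand. Of 32851 windows of the same length over all genes, 3.17% hold GTAAACA, 13.8% CTTTGA and 6.02% CACGTG. The 3 windows differ in composition, with a GC content of 72% in Bcl2l11, 54% in Bmf and 47.6% in Bcl2l1, against a median of 52.4% over all windows. These are matches of letters within 250 bases and say nothing of binding.

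Bid, on the minus strand at chr6:120891930-120916853, encodes the protein through which caspase-8 reaches the mitochondria. Its libraries held 8.53, 8.68, 8.57 and 9.51 FPKM in Apc_WT, 8.73, 8.25, 8.58 and 9.02 in Apc_HET, and 12.7, 14.2, 14 and 14.5 in Apc_KO. Relative to its level, as the highest over the lowest library, its spread was the smallest of the 9 genes in each genotype, and the Apc_KO libraries were all above the rest. The rise was 0.59 (SE 0.08, 95% interval 0.41 to 0.78, limma adjusted p = 0.000107), from 8.82 ± 0.462 to 13.8 ± 0.783 FPKM. The deposited locus of Bid also spans Bcl2l13, which has an entry of its own.

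Bad, whose protein is switched off by phosphorylation under growth factor signalling, is on the plus strand at chr19:6941861-6951899. Its libraries held 8.39, 8.96, 9.09 and 13.1 FPKM in Apc_WT, 9.71, 7.36, 8.09 and 8.26 in Apc_HET, and 6.7, 9.48, 7.19 and 17.8 in Apc_KO. The genotypes overlapped throughout, and Apc_KO held both the lowest and the highest library. The difference between Apc_KO and Apc_WT was -0.03 (SE 0.25, 95% interval -0.56 to 0.51, limma adjusted p = 0.943), an interval that leaves room for a change of either sign. The locus of Bad in the tables also spans Gpr137 and Plcb3.

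Bak1 encodes BAK, a pore former that sits in the mitochondrial membrane, and lies on the minus strand at chr17:27019810-27029009, in a locus that also spans Ggnbp1. Its libraries held 38.9, 40.5, 51.9 and 47 FPKM in Apc_WT, 42.7, 36.2, 34.7 and 39.6 in Apc_HET, and 20, 31.7, 35.4 and 24 in Apc_KO. All Apc_KO libraries were below all Apc_WT libraries, with replicates 1 and 4 the lowest, and Apc_HET reached into both groups. The fall was from 44.6 ± 5.99 to 27.8 ± 7.01 FPKM, a ratio of 0.623 and -0.69 on the log2(FPKM + 1) scale (SE 0.17, 95% interval -1.05 to -0.33, limma adjusted p = 0.00471).

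Casp8, at chr1:58795374-58847503 on the plus strand, encodes the caspase activated at death receptors. Its libraries held 44, 48.7, 48.3 and 41.5 FPKM in Apc_WT, 54, 45.3, 55.5 and 54.5 in Apc_HET, and 36.8, 43.4, 36.3 and 50.3 in Apc_KO. Apc_KO overlapped both other genotypes, and 3 of the 4 Apc_HET libraries were the highest of all 12. The difference between Apc_KO and Apc_WT was -0.14 (SE 0.12, 95% interval -0.40 to 0.12, limma adjusted p = 0.382). Casp8 has 2 entries in the tables. The larger ran from 25.3 to 41.8 FPKM in Apc_KO and from 30.7 to 36.7 in Apc_WT, and the smaller from 4.69 to 11.7 in Apc_KO and from 9.1 to 14.3 in Apc_WT.

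**Figure D2:**
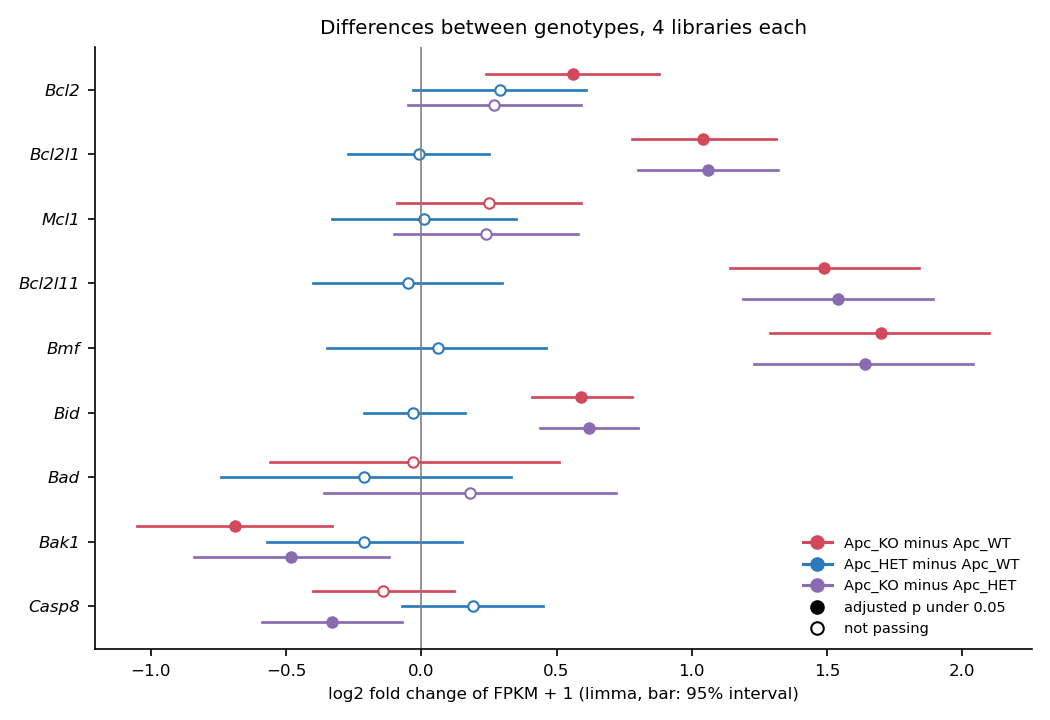
Log2 fold change of FPKM + 1 (horizontal axis) for each of the 9 genes in the 3 comparisons between genotypes, with the 95% interval of the limma fit of all 12 libraries. Filled points passed an adjusted p of 0.05 and open points did not. All 9 Apc_HET minus Apc_WT points are open, while Bcl2l1, Bcl2l11, Bmf and Bid are filled in both comparisons of Apc_KO.

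The order of the levels was different in the mutant cells. In Apc_WT the means ran from Mcl1 (84.5 FPKM) through Casp8 (45.6) and Bak1 (44.6), Bcl2l1 (16.1), Bad (9.89), Bid (8.82), Bcl2l11 (7.57) and Bcl2 (4.6) to Bmf (1.38). Casp8 and Bak1 did not differ beyond their spread there, nor did neighbours among Bad, Bid and Bcl2l11. Apc_HET kept this order, with the neighbours Bad (8.35) and Bid (8.65) exchanged within their spread. In Apc_KO, Mcl1 (102 FPKM) and Casp8 (41.7) were followed by Bcl2l1 (34.6), Bak1 (27.8), Bcl2l11 (23.5), Bid (13.8), Bad (10.3), Bcl2 (7.25) and Bmf (6.92). Of these neighbours, Casp8 and Bcl2l1, Bcl2l1 and Bak1, Bak1 and Bcl2l11, Bid and Bad, Bad and Bcl2, and Bcl2 and Bmf overlapped in their libraries.

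Within the summed RNA of the 3 anti-apoptotic genes, the share of Bcl2l1 was larger in Apc_KO. Bcl2l1 made up 16.8, 16.5, 13.5 and 14.7% of the sum in Apc_WT, 15.6, 14.2, 14.1 and 16% in Apc_HET, and 24.1, 20.2, 20.4 and 33.4% in Apc_KO. The Apc_KO shares were all above the others, replicate 4 most of all. Mcl1 remained the largest part everywhere, with 78.7 to 81.7% for Apc_WT, 77.9 to 80.6% for Apc_HET and 61.3 to 75.3% for Apc_KO. Bcl2 contributed between 3.61 and 6.1% in all 12 libraries. These shares are levels of RNA and take no account of how much protein each makes.

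The summed level of 4 BH3-only genes, Bcl2l11, Bmf, Bid and Bad, was 25.5 to 31 FPKM for Apc_WT, 24.8 to 26.9 for Apc_HET and 46.3 to 61.4 for Apc_KO. Bcl2l11 supplied 22.6 to 31% of it in Apc_WT and 34.6 to 53.5% in Apc_KO, and Bmf 4.4 to 6.01% and 8.65 to 14.9%. Divided by the summed anti-apoptotic RNA, the RNA of these 4 genes came to 0.256, 0.289, 0.243 and 0.265 in Apc_WT, 0.245, 0.218, 0.224 and 0.284 in Apc_HET, and 0.361, 0.317, 0.345 and 0.527 in Apc_KO. The Apc_KO ratios of these 4 genes were above all others. That did not hold for all 7 BH3-only genes tested, Pmaip1, Bbc3 and Bik included, a sum taken after these values were known. Their ratios to the anti-apoptotic sum were 1.88, 1.82, 1.08 and 1.35 in Apc_WT, 1.64, 1.6, 2.35 and 0.947 in Apc_HET, and 1.44, 1.18, 1.14 and 1.1 in Apc_KO. These ratios overlapped between the genotypes. Pmaip1, which encodes NOXA, made up 70.4 to 81% of the sum of the 7 genes in Apc_WT. Its share was 61.4 to 81.9% in Apc_HET and 40.4 to 67.8% in Apc_KO. All Apc_KO shares of Pmaip1 lay below all those of Apc_WT, and Apc_HET reached into both groups. Bcl2l11 per Bcl2l1, both of which rose, was at 0.406 to 0.542 for Apc_WT, 0.381 to 0.54 for Apc_HET and 0.547 to 0.803 for Apc_KO.

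**Figure D3:**
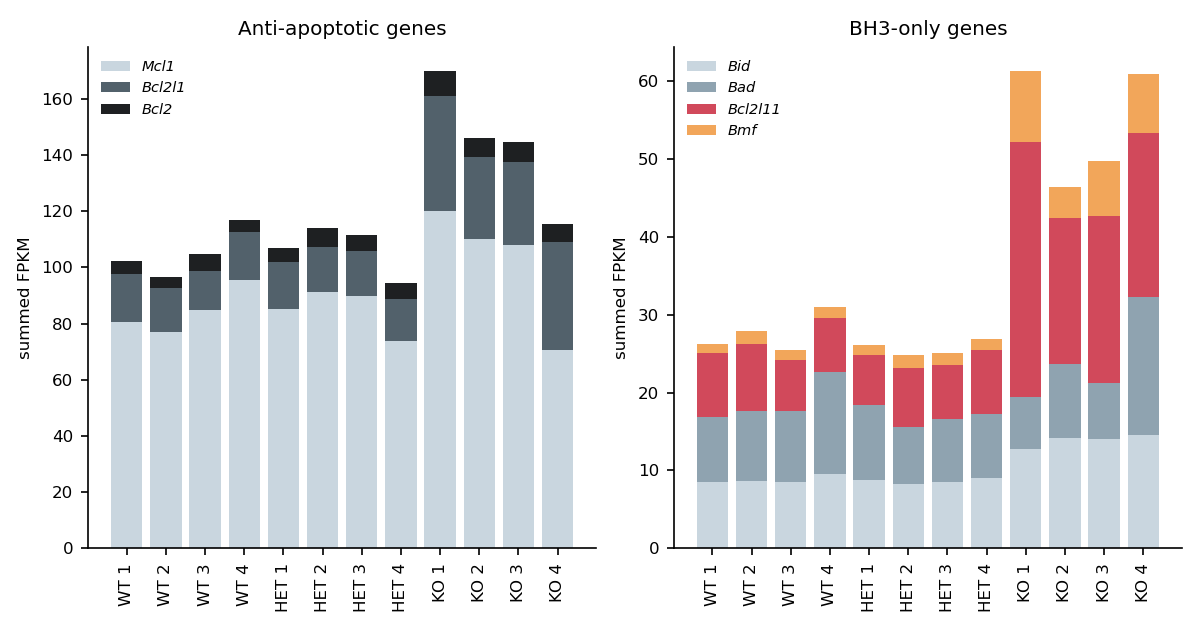
Summed FPKM (vertical axes) of the anti-apoptotic genes Mcl1, Bcl2l1 and Bcl2 (left) and of the BH3-only genes Bid, Bad, Bcl2l11 and Bmf (right), stacked in each of the 12 libraries. The BH3-only sum is 46.3 to 61.4 FPKM in Apc_KO and at most 31 elsewhere, while the anti-apoptotic sum of Apc_KO replicate 4, 115 FPKM, lies within the range of Apc_WT.

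Bak1 is 1 of 3 pore-forming genes, and the others rose where it fell. Bax, whose protein moves to the mitochondria on activation, had 47.9, 68, 60.4 and 74.1 FPKM in Apc_WT and 78.8, 110, 87 and 173 in Apc_KO (log2 fold change 0.78, limma adjusted p = 0.0115). Bok, a relative that can act without BAX and BAK, rose by 1.50 (limma adjusted p = 0.000428), from 18 to 54 FPKM on average. The ratio of Bak1 to Bax RNA was 0.596 to 0.859 for Apc_WT, 0.578 to 0.702 for Apc_HET and 0.138 to 0.406 for Apc_KO, with no overlap of Apc_KO and the rest. The ratio of Bcl2l1 to Bak1 RNA was 0.273 to 0.442 in Apc_WT, 0.382 to 0.455 in Apc_HET, and 2.04, 0.931, 0.835 and 1.6 in Apc_KO replicates 1 to 4.

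Loss of a single Apc copy gave no call on any of the 9 genes in limma, and none on any gene: 0% of the 12962 genes tested were called in Apc_HET against Apc_WT, and 4.33% had an unadjusted p under 0.05. None of the 9 was among the latter. The largest differences were 0.29 for Bcl2 (95% interval -0.03 to 0.61, limma adjusted p = 0.987), -0.21 for Bak1 (95% interval -0.57 to 0.15), -0.21 for Bad (95% interval -0.74 to 0.33) and 0.19 for Casp8 (95% interval -0.07 to 0.45). For the genes that rose in Apc_KO the intervals lay about 0, from -0.27 to 0.25 for Bcl2l1, -0.40 to 0.30 for Bcl2l11, -0.35 to 0.46 for Bmf and -0.21 to 0.16 for Bid. These intervals bound the change but do not show that the genotypes were alike. The libraries of Apc_HET and Apc_WT overlapped for all 9 genes, whereas 6.08% of all genes had no overlap, 5.46% with Apc_HET higher and 0.617% with it lower. These shares come from FPKM without size factors. The size factors were 0.952 to 0.963 in Apc_WT and 1.01 to 1.02 in Apc_HET. With them the median log2 fold change of all genes moved from 0.07 to 0.00. The part of this offset in the shares was not tested.

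The comparison of Apc_KO with Apc_HET tests the difference that the loss of the second copy makes, and it shares the Apc_KO libraries with the comparison above. Of all genes, 41.8% were called, 22.8% higher and 18.9% lower. Among the 9, Bcl2l1 (1.06, limma adjusted p = 1.99e-05), Bcl2l11 (1.54, limma adjusted p = 1.01e-05), Bmf (1.64, limma adjusted p = 2.1e-05) and Bid (0.62, limma adjusted p = 8.77e-05) rose, each with no overlap of libraries, which held for 39.5% of all genes (21.4% higher, 18% lower). Bak1 (-0.48, limma adjusted p = 0.0353) and Casp8 (-0.33, limma adjusted p = 0.044) fell, in both cases with overlapping libraries. Bcl2 (0.27, limma adjusted p = 0.162), Mcl1 (0.24, limma adjusted p = 0.249) and Bad (0.18, limma adjusted p = 0.591) did not pass. The calls on Bak1 and Casp8 were weak: without Apc_KO replicate 1, Bak1 was at -0.34 (limma adjusted p = 0.0844) and Casp8 at -0.27 (limma adjusted p = 0.0946). The call on Bak1 was also lost without Apc_HET replicate 1, 2 or 4 or Apc_KO replicate 4, and that on Casp8 without Apc_HET replicate 1, 3 or 4 or Apc_KO replicate 2 or 3. With only the larger entry of Casp8 its difference was -0.12 (limma adjusted p = 0.487). For Mcl1, leaving out Apc_KO replicate 4 gave 0.40 and a call (limma adjusted p = 0.0101).

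Within Apc_KO the libraries did not vary alike. Replicates 1 and 4 had the higher levels of Bcl2l1 (40.9 and 38.5 FPKM against 29.5 and 29.5) and the lower levels of Bak1 (20 and 24 against 31.7 and 35.4). Replicate 1 was highest for Bcl2, Bcl2l11, Bmf and Mcl1, and replicate 4 highest for Bad, Bid and Casp8. The same pair of libraries stood apart in other genes. The median log2(FPKM + 1) of 21 S phase and mitosis genes was 4.15 and 4.56 in replicates 1 and 4 and 5.42 and 5.50 in replicates 2 and 3, against 5.01 to 5.55 in Apc_WT, and that of 8 goblet cell markers was 3.02 and 3.64 against 5.26 and 5.27. All 4 goblet values lay below the 7.36 to 8.01 of Apc_WT. The part of these differences in the levels of the 9 genes was not tested. In bulk RNA of sorted cells, fewer cells of a type and less RNA per cell cannot be told apart.

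Markers of other cells also moved with genotype. All 11 enterocyte markers fell in Apc_KO, with a summed level between 1650 and 4330 FPKM in Apc_WT, 575 and 1985 in Apc_HET, and 219 and 371 in Apc_KO. Of 10 stroma and endothelium markers 6 were in the tables, with a summed level of 8.91 to 26.5 FPKM for Apc_WT, 20.8 to 88.5 for Apc_HET and 160 to 180 for Apc_KO. Cdh5, an endothelial cadherin, was at 0 to 0.0158 FPKM in Apc_WT and 14.2 to 29.3 in Apc_KO, Pdgfra, a receptor of fibroblasts, at 0 to 0.0604 and 7.81 to 34.9, Vim at 6.75 to 18.7 and 115 to 134, and Acta2 at 0 to 0.177 and 3.91 to 5.56, and these 4 rose. Pdgfrb, a receptor of pericytes, fell by 1.25 (limma adjusted p = 0.00906). Col1a1, a collagen of fibroblasts, was not tested. It was listed at 0 in 2 libraries of Apc_WT, 3 of Apc_HET and 2 of Apc_KO and reached 5.65 FPKM in Apc_KO replicate 1. Of 12 leukocyte markers 7 were in the tables. Their summed level was 6.97 to 9.63 FPKM for Apc_WT, 7.18 to 11.1 for Apc_HET and 6.35 to 9.56 for Apc_KO. Single markers went both ways under that sum. Of 4 tested, Itgae rose (1.15, limma adjusted p = 0.00123), Itgam fell (-1.63, limma adjusted p = 2.07e-06) and 2 did not pass. Ptprc, carried by all leukocytes, was at 0.138 to 0.68 FPKM in Apc_KO. Of 8 goblet cell markers 7 fell (median -3.37), as did 6 of 7 tested enteroendocrine markers (median -2.89). Paneth and tuft cell markers went both ways. Of 6 Paneth cell markers tested, 2 rose, 2 fell and 2 did not pass (median -1.40). Of 6 tuft cell markers tested, 1 rose, 4 fell and 1 did not pass (median -1.17). The 10 stem cell markers had 4 higher and 3 lower. Their summed level was 5591 to 6425 FPKM in Apc_WT and 590 to 1354 in Apc_KO. Olfm4, at 5019 to 5782 FPKM in Apc_WT and 81.7 to 702 in Apc_KO, made up most of the Apc_WT sum. The median log2(FPKM + 1) of the 10 overlapped, at 5.57 to 6.05 in Apc_WT and 5.25 to 6.44 in Apc_KO. The part of any of these in the changes of the 9 genes was not tested.

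Across the 12 libraries 4 of the 5 genes that rose went closely together. The Pearson correlation of log2(FPKM + 1) was 0.98 for Bcl2l11 and Bmf, 0.97 for Bcl2l1 and Bcl2l11, 0.97 for Bcl2l1 and Bmf, and 0.93 for Bcl2l1 and Bid. Bcl2 followed them less, at 0.66 with Bcl2l1, 0.71 with Bcl2l11 and with Bmf, and 0.58 with Bid. Bak1 ran opposite to them, at -0.87 with Bcl2l1 and -0.85 with Bcl2l11. Bad was near 0 with Bcl2l11 (-0.02) and Bak1 (-0.01). The 12 points fall into 3 genotypes and share their libraries, so these values describe mainly the step between genotypes. Among 8880 genes with a mean of at least 5 FPKM, the closest to Bcl2l1 were Pacsin3 and Gpcpd1 (both 0.991), to Bcl2l11 Tgfa (0.983) and Muc6 (0.981), to Bid Prr15 (0.997) and Cyp4b1 (0.989), and to Bcl2 Phf20 (0.945) and Mcm3ap (0.928). Bmf was closest to Muc6 (0.989) and to a joined entry of Mafg and Sirt7 (0.988), and Bak1 to Acot11 (0.966) and Copz1 (0.965).

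To place the 9 genes among the rest of the cell death machinery, 10 lists with 103 genes were used, of which 83 were tested. In Apc_KO against Apc_WT, 19 of them rose, 25 fell and 39 did not pass, with a median of -0.08, beside 27.9% higher, 17.7% lower and a median of 0.12 for all genes. The 74 genes other than the 9 had 14 higher, 24 lower and 36 not passing, with a median of -0.15. Of 3 anti-apoptotic genes tested 2 rose, and of 3 pore-forming genes 2 rose and 1 fell, as described above. In Apc_HET against Apc_WT, 0 of the 83 were called, 0% as over all genes. Against Apc_HET, 15 of the 83 were higher and 24 lower in Apc_KO, beside 22.8% and 18.9% of all genes.

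Among 7 BH3-only genes tested, 4 rose, 0 fell and 3 missed the threshold (median 0.59). The call outside the 9 genes was Bik, which rose by 0.91 (limma adjusted p = 0.0119) from 0.896 to 2.67 FPKM, and was not called with quantile normalization (0.59, limma adjusted p = 0.0912). Bbc3, the p53 target PUMA, had 9.23, 9.27, 6.99 and 9.54 FPKM in Apc_WT and 15.2, 12.7, 14.2 and 10.1 in Apc_KO. Its groups did not overlap, but it did not pass (0.52, limma adjusted p = 0.0979). It was called in the fit of Apc_KO and Apc_WT alone (limma adjusted p = 0.0282). Pmaip1, whose product NOXA restrains MCL1, had 79.6 to 156 FPKM in Apc_WT and 51.1 to 166 in Apc_KO (-0.27, limma adjusted p = 0.628).

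Of 9 other genes related to BCL2 or named BNIP, 3 rose and 2 fell, while 4 did not pass (median 0.26). Bnip3, a mitochondrial protein of mitophagy that hypoxia induces, had 1.52, 1.02, 1.15 and 2.14 FPKM in Apc_WT and 22.1, 15.3, 10.7 and 44.1 in Apc_KO, a rise of 3.12 (limma adjusted p = 9.12e-06). Its relative Bnip3l rose by 0.66 (limma adjusted p = 0.0194), a call lost without Apc_WT replicate 3 (0.54, limma adjusted p = 0.0612), and Bnip2 rose by 0.93 (limma adjusted p = 0.00666). Bcl2l14 fell by 1.31 (limma adjusted p = 4.08e-05) and Bcl2l15 fell by 1.72 (limma adjusted p = 0.00815). Bcl2l13, which shares its locus with Bid, did not pass (0.47, limma adjusted p = 0.161) and had its lowest value, 8.03 FPKM, in Apc_KO replicate 4, without which it was at 0.79 and called (limma adjusted p = 0.000491).

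Of 10 genes for caspases and the caspase-activated DNase, 1 rose and 5 fell, and 4, Casp8 among them, did not pass (median -0.55). The gene that rose was Casp6, an executioner caspase, from 73.5 to 115 FPKM in Apc_WT to 130 to 213 in Apc_KO (0.84, limma adjusted p = 0.00609). The inflammatory caspases Casp1 (-2.01, limma adjusted p = 1.87e-06) and Casp4 (-1.41, limma adjusted p = 0.000123) fell. Dffb (-0.76), which encodes the DNase, and Dffa (-0.74), which encodes its partner subunit, also fell.

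**Figure D4:**
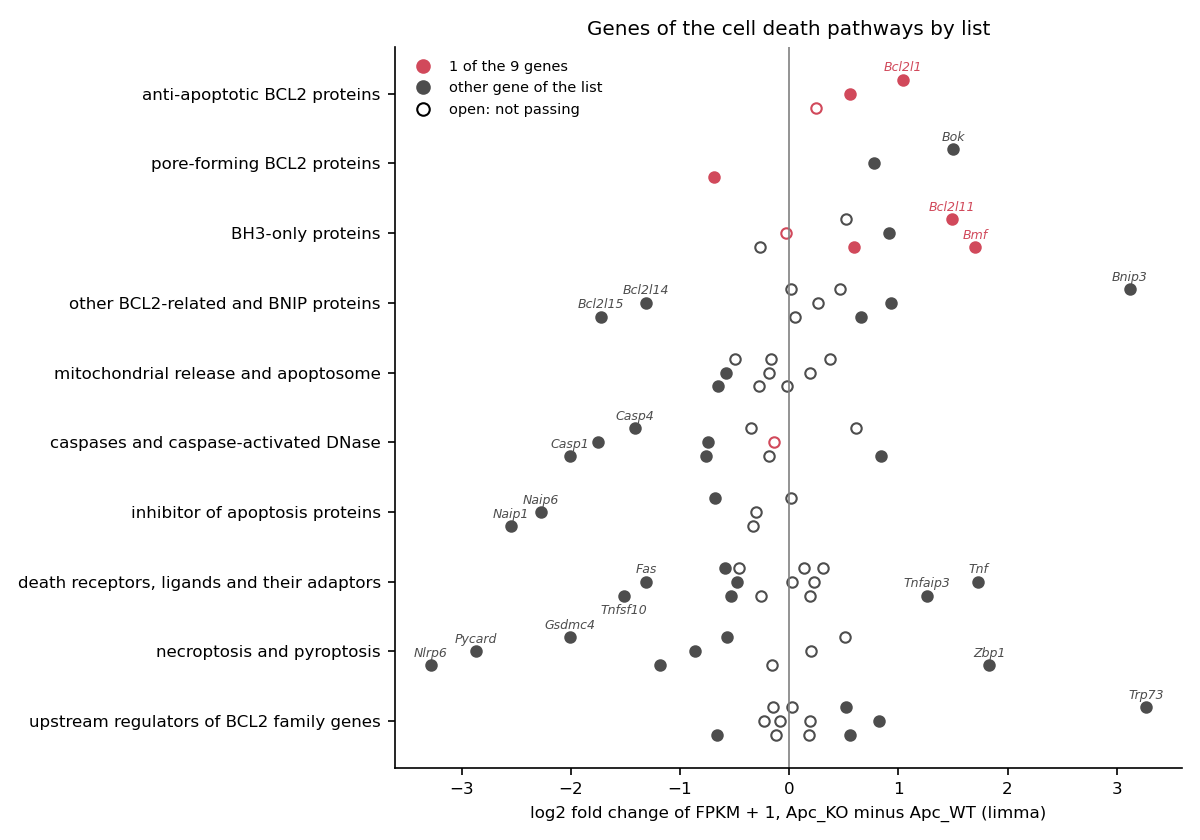
Log2 fold change of FPKM + 1, Apc_KO minus Apc_WT (horizontal axis), of the 83 tested genes in 10 lists of the cell death pathways. Filled points passed an adjusted p of 0.05, the 9 genes described here are in red, and most called genes beyond 1 in size are named. Points of the BCL2 family lists lie mostly to the right of 0 and those of the caspase, inhibitor and pyroptosis lists mostly to the left.

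Downstream of the mitochondria, 9 genes of release and the apoptosome included 0 higher and 2 lower, Aifm1 (-0.65, limma adjusted p = 0.00468) and the channel gene Vdac1 (-0.58, limma adjusted p = 0.00507), with a median of -0.18. Of 6 inhibitor of apoptosis genes, 3 fell and 3 did not pass. Birc3, which encodes cIAP2, fell by 0.68 (limma adjusted p = 0.00106), from 9.88 to 5.79 FPKM. Naip1 (-2.55) and Naip6 (-2.27) also fell. They belong to a cluster of near-identical copies whose reads can be split between them, and their proteins are known as sensors of bacterial protein.

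Of 14 death receptor, ligand and adaptor genes, 2 rose and 5 fell, and 7 did not pass (median -0.11). Components upstream of Casp8 were among those that fell: the receptor Fas, from 2.13 to 5.4 FPKM in Apc_WT to 0.706 to 1.09 in Apc_KO (-1.31, limma adjusted p = 0.000409), the ligand Tnfsf10, known as TRAIL (-1.51, limma adjusted p = 0.000306), and the adaptors Fadd (-0.59, limma adjusted p = 0.00453) and Tradd (-0.53, limma adjusted p = 0.00739). Cyld, a deubiquitinase of the TNF receptor pathway, fell by 0.48 (limma adjusted p = 0.0171), a call lost in the fit of those genotypes alone (limma adjusted p = 0.0541). Tnf itself rose, with 7.54, 12, 9.77 and 8.54 FPKM in Apc_WT and 65.8, 32.5, 22.1 and 25.9 in Apc_KO (1.73, limma adjusted p = 0.0137). Tnfaip3, its feedback inhibitor A20, rose by 1.26 (limma adjusted p = 0.0377) with overlapping libraries. That call was lost without Apc_KO replicate 1, at 0.87 (limma adjusted p = 0.103), and also without any of the 4 Apc_WT libraries or without Apc_KO replicate 2.

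Of 10 necroptosis and pyroptosis genes, 1 rose, 6 fell and 3 missed the threshold (median -0.71). Zbp1, a sensor of nucleic acids that can start necroptosis, rose by 1.83 (limma adjusted p = 3.12e-05). The inflammasome genes Pycard (-2.87, limma adjusted p = 1.15e-05) and Nlrp6 (-3.28, limma adjusted p = 4.12e-05) fell, Pycard from 70.2 to 98.4 FPKM in Apc_WT to 3.96 to 16.5 in Apc_KO. Gsdmc4, a gasdermin with close paralogs that could share its reads, fell by 2.01 (limma adjusted p = 0.000243).

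Of 12 regulators that act upstream of BCL2 family genes, 4 rose, 1 fell and 7 missed the threshold (median 0.11). Trp73, a relative of p53, was at 0 to 1.29 FPKM in Apc_WT and 5.75 to 18.2 in Apc_KO (3.27, limma adjusted p = 6.18e-06). Mdm2, the ubiquitin ligase of p53, rose by 0.56 (limma adjusted p = 0.000273), while Trp53, named after its value was known, was at 0.03 (95% interval -0.31 to 0.38, limma adjusted p = 0.88). Of the FOXO factors, known as activators of Bcl2l11, Foxo4 rose by 0.52 (limma adjusted p = 0.000594) and Foxo1 fell by 0.66 (limma adjusted p = 0.0156). Foxo3, named after its value was known, did not pass (-0.23, limma adjusted p = 0.249). Ddit3, the stress factor CHOP, rose by 0.82 (limma adjusted p = 0.0259). Its call was lost without Apc_WT replicate 3 (0.61, limma adjusted p = 0.0786) and also without Apc_WT replicate 2 or Apc_KO replicate 1, 2 or 4.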

How the data were processed

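Gene expression was measured by RNA-seq of random-primed cDNA in 12 libraries, 4 for each of 3 genotypes, grouped by the genotype in the labels. The deposited values are FPKM per locus, per the file headers. Alignment with TopHat and Bowtie to mm10 (GRCm38) and the use of Cufflinks and Cuffdiff are taken from the tools named in the submitters' processing notes. Versions, annotation, filters and strandedness are not given in the sources used here, so reads of overlapping genes on opposite strands may not be separated. FPKM is relative to each library's total, so a few very abundant genes can shift all others.

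Loci of a symbol were summed. Of 14499 symbols, 295 whose loci differed between genotypes and 122 with a failed estimate were dropped, which left 14082. Apc_WT had 22555 listed loci, against 22548 for Apc_HET and 22552 for Apc_KO. The list of loci thus changed with genotype, and any effect of this on the comparisons was not tested. Genes with at least 1 FPKM in at least 4 libraries, 12962 of them, were tested on log2(FPKM + 1) with limma 3.58.1 in R 4.3.3 (eBayes with a trend, all 12 libraries in 1 fit, two-sided). The p-values were adjusted by Benjamini-Hochberg over all genes within each of the 3 comparisons and called under 0.05. The procedure was tested on simulated data. Fold changes understate the ratio for genes near 0 FPKM. Intervals are at 95%, from limma's moderated test. Some low values lie on steps worth whole fragments, which gave a relative depth for 5 of the 12 libraries, from 0.737 to 0.877 of Apc_WT replicate 1; the absolute depth is unknown, and no count test was run.

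The 9 genes, the 10 pathway lists and the marker lists were chosen with earlier results of these data known. The text names all 9, called genes of the lists in Apc_KO against Apc_WT, uncalled genes of the BCL2 family lists, and the 2 genes that correlate best with each called gene; others are marked. Some genes of the lists are counted but not reported singly here. Gene positions are from GENCODE M21 and promoter sequences from RefSeq (GRCm38.p6), where all 9 genes had a window. For 7 of the 9, the bases after a start were found in a transcript of the gene in the sense direction. The starts used for Bak1, Casp8 and Bad lay 7750, 7158 and 3855 bases from the 5′ end of the deposited locus. The fitted results (the counts of calls and the fold changes of named genes, for genes other than the 9 in Apc_KO against Apc_WT) were recomputed under 10 other settings and with each of the 8 libraries of a comparison left out. Apc was retested with size factors only, and Foxo3 under no other setting. Shares, ratios, correlations and marker sums have no other setting.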

Additional observations from a re-analysis of the deposited data

Results flagged for a closer look

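Sets of 4 libraries were examined for most of the genes named, Foxo3 not among them, in each genotype. In 7 of these 147 sets, the library at 1 end lay far from the other 3 by Dixon's test at 95%. Chance alone marks about 5% of such sets, and 7 of 147 is about that share. Among the 9 genes, Bid was at 9.51 FPKM in Apc_WT replicate 4 and at 8.53 to 8.68 in the other Apc_WT libraries, still below all Apc_KO libraries. Casp8 was at 45.3 FPKM in Apc_HET replicate 2 and at 54 to 55.5 in the other Apc_HET libraries. Bbc3 was low in Apc_WT replicate 3, at 6.99 FPKM against 9.23 to 9.54, and so was Mdm2, at 14.7 FPKM against 17.4 to 17.7. Bnip3 was at 1.98 FPKM in Apc_HET replicate 2 against 1.57 to 1.63, and Naip1 at 15.7 FPKM in Apc_HET replicate 4 against 10.9 to 11.4. Tradd was at 8.02 FPKM in Apc_KO replicate 1 against 10.8 to 11.2.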

How the results depend on the processing

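In Apc_KO against Apc_WT, the calls on Bcl2l1, Bcl2l11, Bid and Bak1 held under all 10 other settings and all 8 libraries left out, and that on Bmf under every setting but the filter at 5 FPKM, where it was not tested. Bcl2 was not called with quantile normalization (0.37). Mcl1 was called with limma arrayWeights (0.38), and ran from 0.16 to 0.41 with libraries left out. Bad, never called, was at 0.01 with only its larger entry and ran from -0.30 to 0.13. In Apc_HET against Apc_WT, 1 gene was called with a pseudocount of 0.1, in the fit of 2 genotypes or with arrayWeights, and 0 to 4 with a library left out (4 without Apc_HET replicate 4, 3 without Apc_WT replicate 3), none of them among the 9. Uncalled values there crossed 0: Mcl1 at -0.07 with size factors and 0.00 with quantile normalization, Bmf at -0.06 with quantile normalization, and with libraries left out Bcl2l1 (-0.07 to 0.02), Bcl2l11 (-0.11 to 0.01), Mcl1 (-0.03 to 0.08) and Bid (-0.04 to 0.01). In Apc_KO against Apc_HET, Bak1 was not called in the fit of 2 genotypes (-0.48) or with arrayWeights (-0.27), and ran from -0.60 to -0.34. Casp8 was not called with its larger entry (-0.12), in the fit of 2 genotypes (-0.33) or without a trend (-0.33), and ran from -0.42 to -0.27. Mcl1 was called with arrayWeights (0.31) and ran from 0.15 to 0.40, and Bad ran from -0.10 to 0.33. Among the other genes, Trp53 (-0.09 with size factors) and Pmaip1 (0.08 with its larger entry) changed sign, and with libraries left out ran from -0.05 to 0.20 and from -0.52 to 0.04. The causes were not tested.

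Replicate numbers are shared by the genotypes, but the labels state no pairing. Of 12 same-numbered pairs, 3 correlated above 0.1 (range -0.20 to 0.18) and 3 libraries correlated best with their own number, so the numbers were not taken as pairs. With the replicate number as a block, 5681 genes were called in Apc_KO against Apc_WT, 0 in Apc_HET against Apc_WT and 5178 in Apc_KO against Apc_HET, and Casp8 (-0.33, limma adjusted p = 0.0795) was the 1 call lost among the 9; Ddit3 was also lost (0.82, limma adjusted p = 0.0503).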
